A study of Astyanax mexicanus with 20 samples.

Results

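The 10 genes described here are the insulin-like growth factor (IGF) ligands igf1, igf2a and igf2b, the receptors igf1ra and igf1rb, and the binding proteins igfbp1a, igfbp2a, igfbp3, igfbp5b and igfbp7. They were taken by exact gene symbol from 27420 genes measured in skeletal muscle of Astyanax mexicanus, a fish with a sighted river form and a blind cave form. The 20 libraries fall into 8 groups. Cave fish injected with cardiotoxin, a snake venom toxin that destroys muscle fibers, were sampled 1, 7 and 14 days post injury (dpi), and cave fish injected with phosphate-buffered saline served as their control. River-dwelling surface fish had the same 3 injured stages and the same saline control. Controls and 1 dpi groups hold 3 libraries each, and the 7 and 14 dpi groups hold 2 each. All groups carry the label of free-running darkness, and neither the day of control sampling, the hour of collection nor the age or sex of the fish is labelled. The cave population is not named either.

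IGFs are secreted peptides that promote growth, survival and differentiation of muscle cells. They signal through receptor tyrosine kinases, the IGF type 1 receptors, which recruit insulin receptor substrate adaptors and activate phosphoinositide 3-kinase, Akt and mTOR. In mammals Akt signalling raises protein synthesis in muscle fibers and keeps FoxO transcription factors, activators of muscle ubiquitin ligases, out of the nucleus. Secreted IGF-binding proteins hold the ligands, carry them and release them when proteases cut the binding protein, so the amount of free ligand depends on both sides. Growth hormone, acting through its receptor and STAT5, drives much of the body's igf1 expression, chiefly in liver, while muscle makes IGFs of its own for local use.

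Levels are given as scaled TPM. TPM, the number of a gene's transcripts per 1000000, corrects for transcript length and sums to 1000000 in each library. It was divided by a factor per library that sets the typical gene equal across libraries, because fast muscle transcripts filled very different shares of the libraries. Those factors ran from 0.595 to 1.92, and 11150 to 15146 genes reached 1 TPM in a library. All 13 identifiers of mature fast muscle markers were detected in every library. Read depth is unknown, since TPM keeps no counts, and nothing in the labels ties a library to a separate fish, so the p-values rest on differences among libraries that may be technical. Differences are log2 fold changes of scaled TPM + 1, which understate changes of low genes, and a gene is called when its limma p-value, adjusted over all 16884 genes tested, is under 0.05. All 10 IGF genes passed the filter of at least 1 TPM in at least 2 libraries.

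The 10 genes differed widely in abundance. Averaged over the 20 libraries, igfbp7 stood at 19.1, igfbp5b at 17.2 and igf2b at 12.3 scaled TPM, above 82.9%, 81.4% and 75.7% of the genes tested. The binding proteins igfbp2a, igfbp3 and igfbp1a followed at 6.66, 4.53 and 3.30 scaled TPM, then the receptors igf1ra and igf1rb at 2.89 and 2.65. The other two ligands were the lowest, with igf2a at 1.61 and igf1 at 0.895 scaled TPM. These values are per transcript length, so they can be compared between genes. How alike the duplicate genes (igf2a and igf2b, igf1ra and igf1rb) are in sequence was not examined. Any reads they share could be split unevenly by the authors' estimation.

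**Figure D1:**
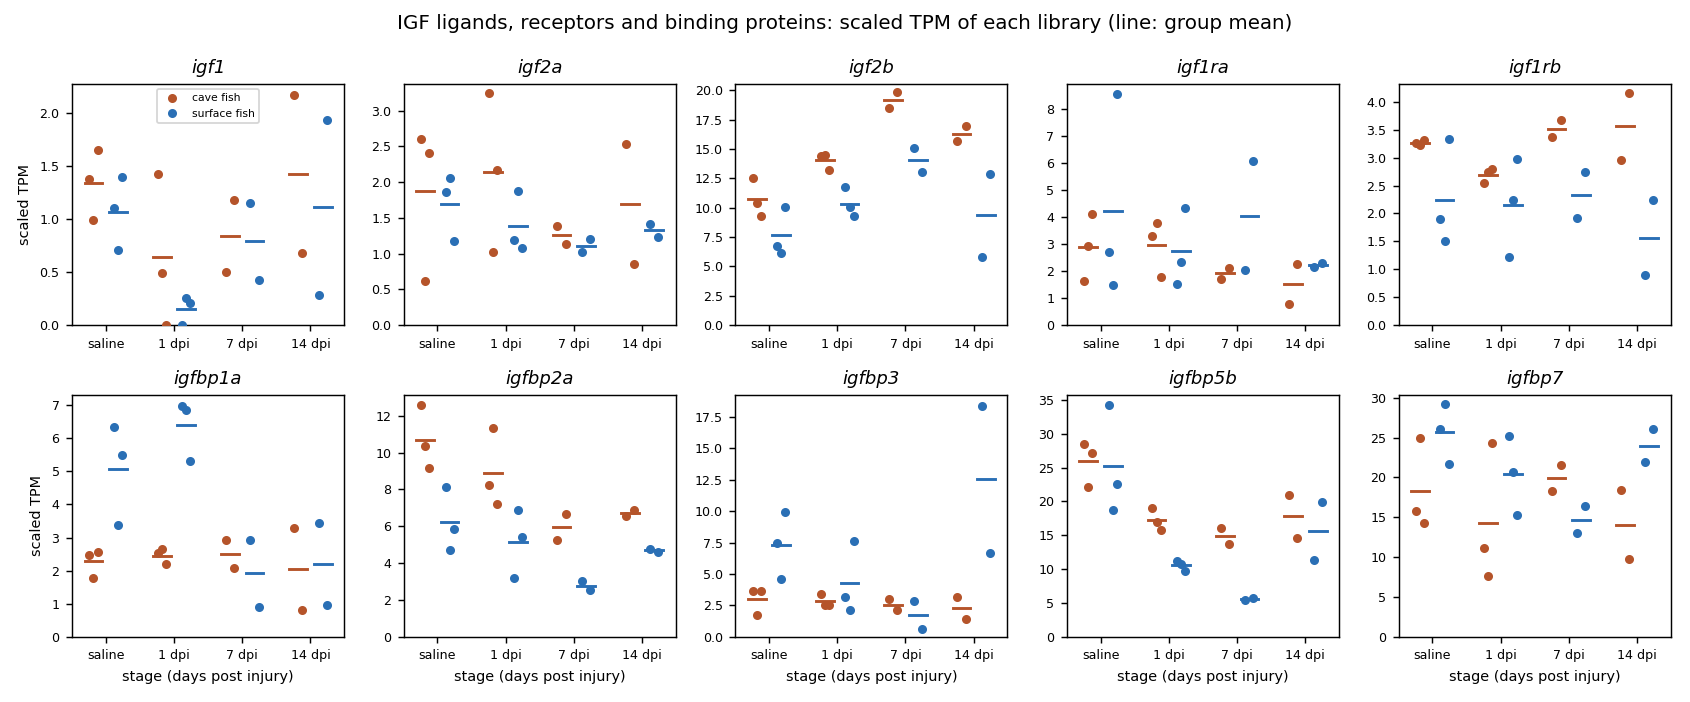
Scaled TPM (vertical axis, from 0, different for each gene) of the 10 IGF genes in saline controls and at 1, 7 and 14 dpi. Each point is 1 library, cave fish left and surface fish right at each stage, and short lines are group means; igfbp5b of surface fish lies lowest at 7 dpi, at 5.38 and 5.74, and igf2b lies highest in cave fish at 7 dpi, at 18.5 and 19.9.

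Among the ligands, igf2b was the predominant transcript in both forms, and its highest levels in either form were at 7 dpi. In mouse myoblasts its mammalian counterpart, IGF2, is an autocrine signal for differentiation. In cave fish igf2b read 12.5, 10.4 and 9.31 scaled TPM in the controls, 14.4, 14.5 and 13.2 at 1 dpi, 18.5 and 19.9 at 7 dpi, and 15.6 and 16.9 at 14 dpi. All injured cave libraries lay above all cave controls. Of all genes 25.1%, 26.8% and 25.4% were higher without overlap in cave fish at 1, 7 and 14 dpi. In surface fish it read 6.70, 6.17 and 10.02 in the controls, 11.7, 10.1 and 9.25 at 1 dpi, 15.1 and 13.03 at 7 dpi, and 5.83 and 12.9 at 14 dpi. The 7 dpi surface libraries lay above the controls, as 19.2% of all genes did, while those of 1 dpi and 14 dpi overlapped them.

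No igf2b difference from control was called. At 7 dpi the log2 fold change was 0.79 in cave fish (SE 0.25, adjusted p = 0.0628) and 0.83 in surface fish (SE 0.25, adjusted p = 0.0695). At 1 dpi it was 0.36 in cave fish (adjusted p = 0.258) and 0.42 in surface fish (adjusted p = 0.237). At 14 dpi it was 0.57 in cave fish (adjusted p = 0.149) and 0.20 in surface fish (adjusted p = 0.869). The 7 dpi values in both forms lay near the threshold, and 95% intervals of 0.26 to 1.32 in cave fish and 0.30 to 1.35 in surface fish, unadjusted for the number of genes, lay above 0. Ranked by mean, igf2b ran in the order surface control, surface 14 dpi, surface 1 dpi, cave control, cave 1 dpi, surface 7 dpi, cave 14 dpi and cave 7 dpi. Of the 7 neighbouring pairs in that order, 3 did not overlap: cave control and cave 1 dpi, surface 7 dpi and cave 14 dpi, and cave 14 dpi and cave 7 dpi. The order was taken from these same values, so this is a description and not a test.

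The ligand igf1, the growth-hormone-dependent member in vertebrates, was near the limit of detection. Only 9 of 20 libraries reached 1 TPM and 2 listed it at 0, a cave and a surface library, both at 1 dpi. In cave fish it read 1.38, 0.989 and 1.65 scaled TPM in controls, 1.42, 0.487 and 0 at 1 dpi, 0.495 and 1.18 at 7 dpi, and 2.17 and 0.680 at 14 dpi. In surface fish igf1 was at 1.11, 0.703 and 1.40 in controls, 0, 0.251 and 0.208 at 1 dpi, 1.15 and 0.429 at 7 dpi, and 0.286 and 1.93 at 14 dpi. All 3 surface libraries of 1 dpi lay below all surface controls, and the other injured groups overlapped their controls. Of all genes 13.5% were lower without overlap in surface fish at 1 dpi. The surface 1 dpi difference was -0.84 on the log2 scale with an adjusted p of 0.125.

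The third ligand, igf2a, is the other duplicate of IGF2 in teleosts. It ranged from 0.611 to 3.25 scaled TPM over all libraries, and every injured group overlapped its control. Its log2 differences from control ran from -0.26 to 0.15 in cave fish and from -0.34 to -0.18 in surface fish, and none was called. The mean share of igf2b in the 3 ligands was larger at every injured stage than in controls. At 1 dpi it was 84.0% ± 7.68 in cave fish and 87.0% ± 4.20 in surface fish (SD, n = 3). At 14 dpi it was 84.3% ± 10.5 in cave fish and 78.85% ± 1.97 in surface fish (SD, n = 2). The 1 and 14 dpi cave libraries and the 14 dpi surface libraries overlapped their controls, and cave controls reached 86.7%. By TPM, igf2b made up 90.2% ± 0.843 of the ligand sum at 7 dpi against 77.4% ± 8.62 in control cave fish, and 88.2% ± 1.04 at 7 dpi against 72.6% ± 5.998 in control surface fish (SD, n = 2 at 7 dpi and n = 3 in controls).

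The receptors showed no called response to injury in either form. The gene igf1ra varied most between replicates: the surface controls alone spanned 1.48 to 8.55 scaled TPM, and over all libraries the range was 0.774 to 8.55. Its log2 differences from control ran from -0.64 to 0.04 in cave fish and from -0.46 to 0.06 in surface fish. The lowest of these had a 95% interval of -1.73 to 0.44 and the highest one of -1.02 to 1.15. Its duplicate igf1rb was steadier. In cave fish igf1rb averaged 3.27 ± 0.0517 scaled TPM in controls, 2.69 ± 0.134 at 1 dpi, 3.52 ± 0.225 at 7 dpi and 3.56 ± 0.855 at 14 dpi. In surface fish it averaged 2.24 ± 0.968 in controls, 2.15 ± 0.881 at 1 dpi, 2.33 ± 0.578 at 7 dpi and 1.56 ± 0.950 at 14 dpi (SD, n = 3 in controls and at 1 dpi, n = 2 later). The 3 cave libraries of 1 dpi lay just below the cave controls and the 2 of 7 dpi just above them. The log2 differences were -0.21 (adjusted p = 0.579) and 0.08 (adjusted p = 0.910). In cave fish 19.4% of all genes were lower at 1 dpi and 26.8% higher at 7 dpi without overlap.

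Of the binding proteins, igfbp5b was the gene called after injury, in surface fish. IGFBP5 binds both IGFs and extracellular matrix and is prominent in mammalian muscle, where in mouse myoblasts it takes part in differentiation through IGF2. In cave fish igfbp5b read 28.5, 22.1 and 27.2 scaled TPM in controls, 19.0, 17.0 and 15.8 at 1 dpi, 16.1 and 13.7 at 7 dpi, and 20.9 and 14.6 at 14 dpi. In surface fish the values were 34.2, 18.8 and 22.5 in controls, 11.3, 10.7 and 9.70 at 1 dpi, 5.38 and 5.74 at 7 dpi, and 11.3 and 19.9 at 14 dpi. Every injured cave library lay below every cave control, and every surface library of 1 and 7 dpi lay below every surface control. Of the 2 surface libraries of 14 dpi, 1 lay within the control range. Of all genes 19.4%, 20.3% and 18.7% were lower without overlap in cave fish at 1, 7 and 14 dpi. In surface fish 13.5% were at 1 dpi and 15% at 7 dpi.

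In surface fish igfbp5b fell at 1 dpi by 1.14 on the log2 scale (SE 0.22, 95% interval -1.61 to -0.66, adjusted p = 0.00377). It was the only one of the 10 genes called there, in a comparison that called 14.8% of all genes. At 7 dpi it fell by 1.95 (SE 0.25, 95% interval -2.48 to -1.42, adjusted p = 0.000901), again the only one of the 10, where 4.59% of all genes were called. At 14 dpi its difference was -0.66 (adjusted p = 0.407), none of the 10 genes was called, and neither was any other gene, at 0% of all genes called. In limma's fit 1593 genes, igfbp5b and igfbp1a among them, had an unadjusted p under 0.05 there. A further difference of -0.81 between 7 and 1 dpi was not called (adjusted p = 0.0816), like the other 9 genes, with 4.39% of all genes called. At an unadjusted limma p under 0.05 there were 3 of the 10, without the share of all genes, which is not read as a result.

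In cave fish the igfbp5b differences were smaller and did not pass the test. They were -0.56 at 1 dpi (adjusted p = 0.0827), -0.76 at 7 dpi (adjusted p = 0.0757) and -0.53 at 14 dpi (adjusted p = 0.177). None of the 10 genes was called by limma in cave fish at 1, 7 or 14 dpi, while 24.8%, 7.38% and 10.1% of all genes were. At an unadjusted p under 0.05 there were 1, 3 and 3 of the 10: igfbp5b at each stage, joined by igf2b and igfbp2a at 7 and 14 dpi. Where counts at an unadjusted p stand without the share of all genes, here and elsewhere, they are not read as a result. Between 7 and 1 dpi of cave fish none of the 10 was called either, nor had an unadjusted p under 0.05, with 9.57% of all genes called.

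Taken over the 10 genes, with no test, the median log2 difference from control was -0.12, -0.20 and -0.26 in cave fish at 1, 7 and 14 dpi, against 0.04, 0.03 and 0.07 for all genes tested. In surface fish it was -0.29, -0.55 and -0.26, against 0.02, 0.03 and -0.01 for all genes. By the sign of the fitted log2 difference 6, 6 and 8 of the 10 were lower in cave fish at 1, 7 and 14 dpi, where 7903, 7883 and 7412 of the 16884 genes tested were. In surface fish 8, 7 and 8 of the 10 were lower, where 7977, 7733 and 8583 of all genes were. The ligand igf2b had a positive difference in all 6 comparisons.

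The surface 1 dpi result depends on the scaling. Without the scaling factors the log2 difference was -0.40 (adjusted p = 0.234), and the median of all genes shifted to 0.57, against 0.02 with scaling. Relative to that median igfbp5b stood at -0.97 without scaling and at -1.16 with it. The 7 dpi difference was -1.61 without scaling (adjusted p = 0.00658). Its adjusted p was 0.0604 when only the groups compared entered the fit.

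Other tissue markers moved in the same libraries. Mature fast muscle markers summed to 46641 to 236239 scaled TPM at 1 dpi and 184551 to 193137 at 7 dpi, against 304860 to 432325 in surface controls, and 9 of 13 fell at 1 dpi, while 2 of 13 rose at 7 dpi. The nerve and Schwann cell markers (mbpa, mpz, plp1b, egr2b and others), none of them at 0 in any library, summed to 71.8 to 114 at 1 dpi and 65.7 to 69.8 at 7 dpi, against 136 to 168 in surface controls, and 1 and 5 of 8 fell. Fibroblast markers summed to 550.1 to 1834 at 1 dpi and 1751 to 2860 at 7 dpi, against 1524 to 5723 in surface controls. Of those 10 markers 5 fell and 1 rose at 1 dpi and none was called at 7 dpi, and a further fibroblast marker, tcf21, below the filter, was at 0 in 15 libraries. Of all genes 6.41% fell and 8.35% rose at 1 dpi in surface fish, and 1.48% fell and 3.11% rose at 7 dpi. In bulk muscle, fewer cells of a type and less RNA per cell cannot be told apart. The part of these cell types in the igfbp5b result was not tested.

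**Figure D2:**
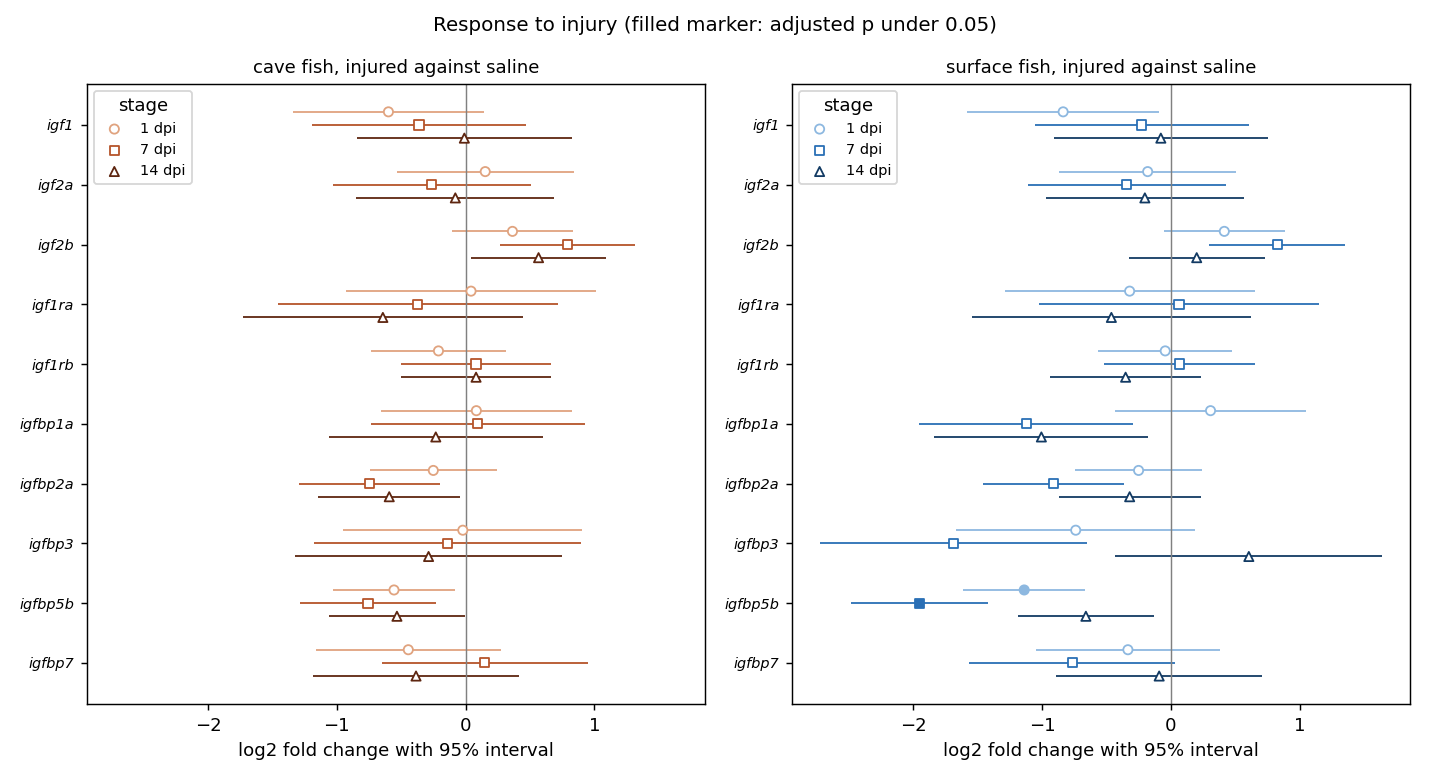
Log2 fold change of scaled TPM + 1, injured over saline, of the 10 IGF genes in cave fish (left) and surface fish (right), with unadjusted 95% limma intervals. Circles are 1 dpi, squares 7 dpi and triangles 14 dpi, and filled markers passed an adjusted p of 0.05; only igfbp5b of surface fish at 1 and 7 dpi is filled, at -1.14 and -1.95.

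The other binding proteins moved less uniformly. The gene igfbp2a encodes a soluble IGF-binding protein with a preference for IGF2 in mammals. In cave fish igfbp2a read 12.6, 10.4 and 9.15 scaled TPM in controls, 8.24, 11.3 and 7.19 at 1 dpi, 5.25 and 6.68 at 7 dpi, and 6.54 and 6.87 at 14 dpi. Levels in surface fish were 8.11, 4.69 and 5.87 in controls, 3.17, 6.90 and 5.43 at 1 dpi, 3.01 and 2.54 at 7 dpi, and 4.74 and 4.62 at 14 dpi. The 7 dpi libraries lay below their controls in both forms, as did the 14 dpi libraries of cave fish. Of all genes 20.3% and 18.7% did so in cave fish at 7 and 14 dpi, and 15% in surface fish at 7 dpi. The 7 dpi differences were -0.75 in cave fish (adjusted p = 0.0906) and -0.91 in surface fish (adjusted p = 0.0574), so neither was called.

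The gene igfbp1a encodes an inhibitor of IGF action that in zebrafish is induced by hypoxia and fasting. Its levels in cave fish averaged 2.27 ± 0.427 scaled TPM in controls, 2.46 ± 0.245 at 1 dpi, 2.50 ± 0.614 at 7 dpi and 2.04 ± 1.77 at 14 dpi. In surface fish they read 6.35, 3.38 and 5.49 in controls, 6.99, 6.87 and 5.31 at 1 dpi, 2.92 and 0.897 at 7 dpi, and 3.45 and 0.966 at 14 dpi. Both surface libraries of 7 dpi lay below all those of the controls and of 1 dpi. Of all genes 15% lay below the controls and 18.3% below 1 dpi in this way. The 7 dpi difference from control in surface fish was -1.12 (adjusted p = 0.113), and that between 7 and 1 dpi was -1.43 (SE 0.39, adjusted p = 0.0502), just outside the threshold.

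The gene igfbp3, whose mammalian counterpart is the main serum carrier of IGFs, ranged over 3.62, 1.71 and 3.67 scaled TPM in cave controls, and over 3.43, 2.55 and 2.54 at 1 dpi, 2.96 and 2.13 at 7 dpi and 3.17 and 1.42 at 14 dpi in cave fish. Surface libraries read 7.44, 4.61 and 9.89 in controls, 3.18, 2.09 and 7.59 at 1 dpi, 2.88 and 0.604 at 7 dpi, and 18.3 and 6.70 at 14 dpi. The 7 dpi surface libraries lay below their controls, and a single 14 dpi library held the highest value. The log2 difference from control in surface fish was -1.69 at 7 dpi (SE 0.49, adjusted p = 0.0615) and 0.61 at 14 dpi (adjusted p = 0.753). In cave fish the differences from control lay between -0.29 and -0.02. A second identifier with the symbol in capitals, IGFBP3, which the exact match leaves out, was looked at after the values of igfbp3 were seen. It ranged from 0.516 to 2.30 scaled TPM. At surface 7 dpi IGFBP3 read 1.24 and 1.43, within the surface control range of 0.965 to 2.06. At 14 dpi its cave libraries, at 0.516 and 1.54, overlapped the surface libraries, at 2.30 and 0.664.

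The gene igfbp7 encodes a protein with low affinity for IGFs that is deposited in matrix and around vessels in mammals. In cave fish it averaged 18.3 ± 5.81 scaled TPM in controls, 14.3 ± 8.80 at 1 dpi, 19.9 ± 2.31 at 7 dpi and 14.0 ± 6.12 at 14 dpi. In surface fish it averaged 25.7 ± 3.79 in controls, 20.4 ± 4.95 at 1 dpi, 14.7 ± 2.40 at 7 dpi and 24.0 ± 2.90 at 14 dpi (SD, n = 3 in controls and at 1 dpi, n = 2 later). Both surface libraries of 7 dpi lay below the controls, at a log2 difference of -0.77 (adjusted p = 0.269). In surface fish at 7 dpi all 5 binding proteins thus lay below every control library, where 15% of all genes did so.

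Among the 10 genes, the balance of binding protein to ligand transcripts was lower in most injured libraries. This ratio is taken within a library, does not depend on the scaling and carries no test. It counts transcripts and does not measure protein or free ligand, and its sum includes igfbp7, of low affinity for IGFs. Other binding protein genes are not in the sum, among them igfbp2b, at 10.6 scaled TPM in cave controls and 18.4 in surface controls. In each library igfbp5b and igfbp7 made up 55.6% to 84.5% of the sum. In cave fish the 5 binding proteins summed to 3.82 to 5.08 times the TPM of the 3 ligands in controls, 2.32 to 3.39 times at 1 dpi, 2.08 to 2.23 times at 7 dpi and 1.81 to 2.57 times at 14 dpi. In surface fish they summed to 5.20 to 8.51 times in controls, 3.86 to 4.12 times at 1 dpi, 1.57 to 1.78 times at 7 dpi and 3.63 to 7.94 times at 14 dpi. Only the surface 14 dpi libraries overlapped their controls. In cave fish the ligand sum averaged 21.3 ± 1.25 scaled TPM at 7 dpi and 13.9 ± 2.30 in controls, and the binding protein sum averaged 45.8 ± 0.420 at 7 dpi and 60.2 ± 3.15 in controls. In surface fish the ligand sum averaged 16.0 ± 1.84 at 7 dpi and 10.4 ± 1.93 in controls, and the binding protein sum averaged 26.7 ± 0.720 at 7 dpi and 69.5 ± 11.3 in controls (SD, n = 2 at 7 dpi and n = 3 in controls).

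The ratio of igfbp5b to igf2b transcripts was chosen after its values were seen and carries no test. In cave fish it was 2.28, 2.13 and 2.92 in controls, 1.31, 1.17 and 1.20 at 1 dpi, 0.868 and 0.689 at 7 dpi, and 1.34 and 0.864 at 14 dpi. In surface fish it was 5.11, 3.04 and 2.25 in controls, 0.959, 1.07 and 1.05 at 1 dpi, 0.357 and 0.441 at 7 dpi, and 1.95 and 1.55 at 14 dpi. Every injured library of either form lay below every control of its form.

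**Figure D3:**
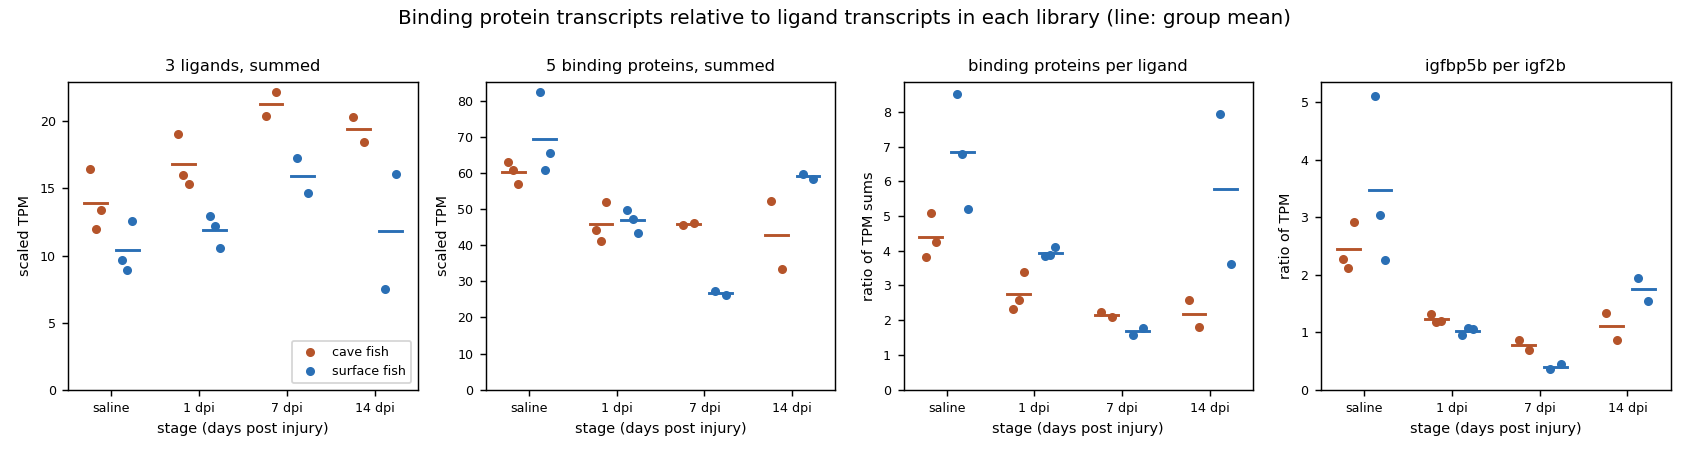
Summed ligand and binding protein levels (scaled TPM), the ratio of their TPM sums, and the ratio of igfbp5b to igf2b TPM in saline controls and at 1, 7 and 14 dpi. Each point is 1 library, cave fish left and surface fish right, and short lines are group means; the ratio of sums is lowest in surface fish at 7 dpi, at 1.57 and 1.78.

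The same genes were then compared between the forms at each stage. In saline controls none of the 10 differed at limma's threshold, while 8.74% of all genes did. The share of all genes under an unadjusted limma p of 0.05 is not given for controls or 1 dpi. Counts of the 10 under it, 3 in controls, are therefore not read as a result. The largest differences, cave over surface, were -1.05 for igfbp3 (adjusted p = 0.164), -0.87 for igfbp1a (adjusted p = 0.149) and 0.71 for igfbp2a (adjusted p = 0.0700), and for each of these the cave and surface libraries did not overlap. Of all genes 12.4% were higher and 12.5% lower in cave controls without overlap. For igfbp5b the control difference was 0.08, with a 95% interval of -0.40 to 0.55. At 1 dpi again none of the 10 was called by limma, against 11.6% of all genes, and 3 had an unadjusted p under 0.05. There igfbp1a differed by -1.09 (adjusted p = 0.0551), igfbp2a by 0.71 (adjusted p = 0.0585) and igfbp5b by 0.66 (adjusted p = 0.0690). The libraries did not overlap for these or for igf2b, with a difference of 0.41 (adjusted p = 0.267), and 20.8% of all genes were higher and 13.8% lower in cave fish without overlap. At that stage igfbp7 differed by -0.61 (adjusted p = 0.282), and by -1.04 (adjusted p = 0.0334) without a cave control and a cave 1 dpi library that summed to 2046 and 8441 scaled TPM over 11 skin marker identifiers, a choice made after seeing the data. Without that 1 dpi library alone it differed by -1.04 (adjusted p = 0.0440).

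At 7 dpi cave fish had more igfbp5b than surface fish, with 16.1 and 13.7 scaled TPM in cave libraries against 5.38 and 5.74 in surface libraries. Its log2 difference was 1.27 (SE 0.27, 95% interval 0.69 to 1.85, adjusted p = 0.0137). It was the only one of the 10 called, and 4.56% of all genes were called. At this stage 9 of the 10 genes had a positive log2 difference, as did 8574 of the 16884 genes tested, igf1ra being the exception. For 5 of them, igf2b, igf1rb, igfbp2a, igfbp5b and igfbp7, both cave libraries lay above both surface libraries, which was so for 26.9% of all genes. With 2 libraries on each side an exact permutation test cannot go below a p of 0.333, so the call rests on the spread pooled over all 8 groups. Leaving out any of the 4 libraries compared ended it, with adjusted p-values of 0.135 and 0.0569 without cave replicate 1 or 2 and of 0.0727 and 0.0707 without surface replicate 1 or 2. Fast muscle markers summed to 193725 to 207348 scaled TPM in cave fish against 184551 to 193137 in surface fish at 7 dpi, nerve and Schwann cell markers to 69.7 to 101 against 65.7 to 69.8, and none of the 13 and 8 was called. Fibroblast markers summed to 2687 to 3293 in cave fish against 1751 to 2860 in surface fish, and none of the 10 was called, though 9 had a positive log2 difference. Their part in the igfbp5b difference was not tested.

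At 14 dpi igfbp3 was lower in cave fish, with 3.17 and 1.42 scaled TPM against 18.3 and 6.70 in surface fish. The log2 difference was -1.94 (SE 0.53, 95% interval -3.08 to -0.81, adjusted p = 0.0292), the only call among the 10, where 12.2% of all genes were called. It rests largely on 1 library: without surface replicate 1, which read 18.3, the difference was -1.29 (adjusted p = 0.291), and without cave replicate 2 it was -1.55 (adjusted p = 0.173). Without the scaling factors it was -1.48 (adjusted p = 0.107), where the median of all genes shifted to 0.39 from 0.09 with scaling, and igfbp3 stood at -1.87 and -2.03 relative to those medians. With only those 2 groups in the fit the adjusted p was 0.165. Fast muscle markers summed to 214142 to 356343 scaled TPM in cave fish against 427232 to 489130 in surface fish at 14 dpi, with 1 of 13 lower at the threshold. Nerve and Schwann cell markers summed to 42.0 to 70.1 against 76.0 to 140, with 4 of 8 lower. Of all genes 5.24% were lower in cave fish at the threshold. The part of these cell types in the igfbp3 difference was not tested. Near the threshold at this stage were igf2b at 0.83 (adjusted p = 0.0589) and igf1rb at 0.87 (adjusted p = 0.0703), both without overlap, as was igfbp2a at 0.44 (adjusted p = 0.325). Of all genes 30.9% were higher in cave fish without overlap at 14 dpi, so 3 of the 10 is about the background.

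**Figure D4:**
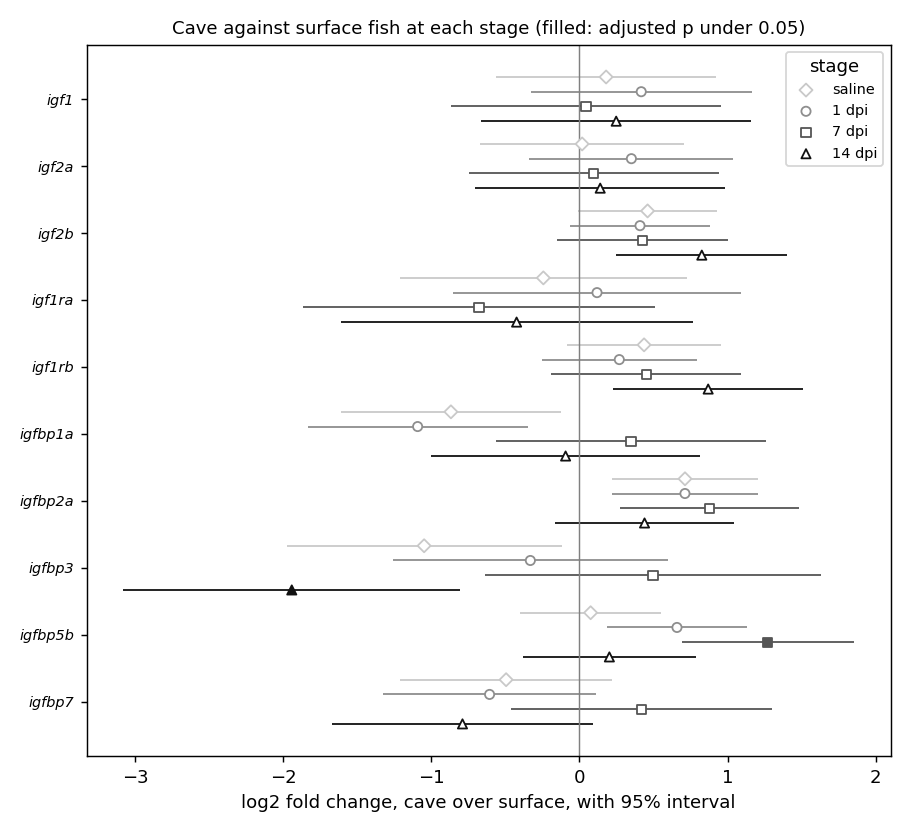
Log2 difference of scaled TPM + 1, cave over surface fish, of the 10 IGF genes at each stage, with unadjusted 95% limma intervals. Diamonds are saline controls, circles 1 dpi, squares 7 dpi and triangles 14 dpi; filled markers passed an adjusted p of 0.05, which are igfbp5b at 7 dpi (1.27) and igfbp3 at 14 dpi (-1.94).

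No IGF gene was shown to respond differently in the 2 forms. The interaction, the cave response minus the surface response, was called for none of the 10 at 1, 7 or 14 dpi, and for 0.113%, 0.0474% and 0.0296% of all genes. In limma's fit 0, 3 and 0 of the 10 had an unadjusted p under 0.05, counts without the share of all genes and not read as a result. For igfbp5b it was 0.58 at 1 dpi (adjusted p = 0.597), 1.20 at 7 dpi (95% interval 0.45 to 1.95, adjusted p = 0.616) and 0.13 at 14 dpi (adjusted p = 0.912). For igfbp3 at 7 dpi it was 1.55 (adjusted p = 0.991) and for igfbp1a 1.21, with unadjusted 95% intervals of 0.08 to 3.01 and 0.04 to 2.39. For igf2b at 7 dpi it was -0.03, with an interval of -0.78 to 0.71.

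Described across the 20 libraries, the closest pair among the 10 was igfbp2a and igfbp5b, with a Pearson correlation of 0.74 on log2 levels. The libraries share stages and forms, so these values carry no p. The ligand igf2b correlated with igf1rb at 0.62 and with igfbp3 at -0.63, and with igfbp5b at -0.20. Among all other named genes, the levels most like igf2b were those of P2RY14, cmtm3 and dab2, at 0.94, 0.93 and 0.92, and those most like igfbp5b were sema3d, anos1b and dhx32a, at 0.87, 0.86 and 0.85. For igfbp2a they were tspan11, s1pr2 and eepd1, at 0.90, 0.88 and 0.86, and for igfbp1a slc22a31, ggt5a and the endothelial receptor gene kdrl, at 0.82, 0.81 and 0.78. For the remaining 6 genes the closest were lancl2 for igf1 (0.83), zgc:153018 for igf2a (0.75), ap4b1 for igf1ra (0.85), flncb for igf1rb (0.84), hoxb8a for igfbp3 (0.80) and slc35f1 for igfbp7 (0.76).

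Several of the binding protein genes are chromosomal neighbours. In the RefSeq annotation of the AstMex3_surface assembly, in which all 10 symbols matched, igfbp3 lies next to igfbp1a, igfbp5b next to igfbp2b, and igfbp2a next to igfbp5a, with 0 annotated genes between. Across the 20 libraries the correlation was 0.46 for igfbp3 and igfbp1a, 0.27 for igfbp5b and igfbp2b, and 0.77 for igfbp2a and igfbp5a.

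The rest of the family was read from a list of 22 names, of which 10 were found and 6 passed the filter: insra, insrb, igf2r, igfbp2b, igfbp5a and igfbp6b. The ligand genes ins and igf3 and the binding protein gene igfbp1b stayed at or below 0.5 TPM, and igfals, which in mammals stabilises circulating IGF complexes, was listed at 0 in all 20 libraries. Of the 6, 3 fell and none rose at 1 dpi in cave fish, where 9.07% of all genes fell and 15.7% rose. In surface fish 1 fell and none rose, where 6.41% of all genes fell and 8.35% rose. The binding protein gene igfbp2b fell in both forms at 1 dpi. It read 4.80, 3.31 and 5.05 scaled TPM at 1 dpi against 10.8, 10.995 and 10.1 in cave controls, and 8.53, 9.98 and 5.81 at 1 dpi against 16.2, 20.7 and 18.4 in surface controls. Injured and control libraries did not overlap, and the log2 differences were -1.12 in cave fish (SE 0.26, adjusted p = 0.00500) and -1.11 in surface fish (SE 0.26, adjusted p = 0.00937). Both calls are lost without the scaling factors, at -0.68 (adjusted p = 0.0729) and -0.39 (adjusted p = 0.259).

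In cave fish igfbp6b, a binding protein that in mammals favours IGF2, fell at all 3 stages. Its controls read 7.47, 6.07 and 7.94 scaled TPM, with 3.05, 3.35 and 4.92 at 1 dpi, 3.42 and 2.02 at 7 dpi, and 4.45 and 1.96 at 14 dpi. The log2 differences were -0.79 (adjusted p = 0.0281), -1.15 (adjusted p = 0.0208) and -1.02 (adjusted p = 0.0307), and these calls ended without scaling, where the log2 difference was -0.36 at 1 dpi (adjusted p = 0.381) but nearly as large at 7 dpi (-1.10, adjusted p = 0.0666) and larger at 14 dpi (-1.12, adjusted p = 0.0641). Each also ended when single libraries were left out, with adjusted p-values up to 0.0949 at 1 dpi without cave 1 dpi replicate 1, 0.237 at 7 dpi without cave 7 dpi replicate 2 and 0.305 at 14 dpi without cave 14 dpi replicate 2. The insulin receptor gene insra fell at 1 dpi in cave fish by 0.70 (adjusted p = 0.0126), a call also lost without scaling, at a log2 difference of -0.28 (adjusted p = 0.532). Of the 6 genes 1 was called at 7 dpi and 1 at 14 dpi in cave fish, igfbp6b in each, where 7.38% and 10.1% of all genes were. None was called at those stages in surface fish, where 4.59% and 0% of all genes were. There 2 and 0 of the 6 had an unadjusted limma p under 0.05, counts without the share of all genes and not read as a result. Between the forms none of the 6 was called at any stage, with 2 of 6 under an unadjusted limma p of 0.05 at each, again not read as a result. Of all genes 8.74%, 11.6%, 4.56% and 12.2% were called between the forms in controls and at 1, 7 and 14 dpi. Across the 6 the median difference at 1 dpi was -0.50 in cave fish and -0.51 in surface fish, against 0.04 and 0.02 for all genes.

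The growth hormone side was read from 15 genes of growth hormone signalling and IGF release. The receptor gene ghra fell in both forms. In cave fish it read 29.8, 18.8 and 35.1 scaled TPM in controls, 12.1, 10.8 and 12.6 at 1 dpi, 16.5 and 11.4 at 7 dpi, and 14.9 and 11.1 at 14 dpi. The surface fish readings were 30.9, 23.0 and 30.7 in controls, 10.96, 11.9 and 9.80 at 1 dpi, 9.70 and 8.18 at 7 dpi, and 25.2 and 17.7 at 14 dpi. Every injured cave library and every surface library of 1 and 7 dpi lay below its controls. The log2 differences in cave fish were -1.13 (adjusted p = 0.00170), -0.93 (adjusted p = 0.0352) and -1.01 (adjusted p = 0.0222) at 1, 7 and 14 dpi. In surface fish they were -1.29 (adjusted p = 0.00165) at 1 dpi and -1.55 (adjusted p = 0.00512) at 7 dpi. Without scaling those of 1 dpi were -0.64 in cave fish (adjusted p = 0.0760) and -0.55 in surface fish (adjusted p = 0.101), that is -1.04 and -1.12 relative to the median of all genes. At 7 dpi in cave fish the call also ended without scaling, where the log2 difference was -0.87 (adjusted p = 0.107), and without cave 7 dpi replicate 2 its adjusted p was 0.322. At 14 dpi it was 0.158 without cave 14 dpi replicate 2. Over the 20 libraries ghra and igfbp5b correlated at 0.76, given as a description.

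Of the same 15 genes, 2 rose and 2 fell at 1 dpi in cave fish, and 2 rose and 1 fell in surface fish. Those counts lie near the shares of all genes, 15.7% higher and 9.07% lower in cave fish and 8.35% higher and 6.41% lower in surface fish. The transcription factor gene stat5b, which acts below the growth hormone receptor, rose by 1.06 in cave fish (adjusted p = 0.00268) and 0.78 in surface fish (adjusted p = 0.0270). The lysosomal protease gene ctsd, whose product can cut binding proteins in mammals, rose by 1.12 in cave fish (adjusted p = 0.00805) and 1.08 in surface fish (adjusted p = 0.0164). With replicate number as a block and only the control and 1 dpi groups in the fit, the 2 surface calls were lost (adjusted p = 0.0843 for stat5b and 0.0784 for ctsd). The 2 cave calls held in all 20 fits that left out 1 library. The gene stc1, whose product stanniocalcin inhibits binding protein proteases, fell in cave fish at 1 dpi by 0.89 (adjusted p = 0.00632) and at 14 dpi by 0.88 (adjusted p = 0.0296, and 0.183 without cave 14 dpi replicate 2). One such protease gene, pappa2, differed between cave and surface controls by -0.90 (adjusted p = 0.0473), a call that held in only 3 of 20 fits that left out 1 library. The kinase gene jak2b, which acts at the growth hormone receptor, differed between 7 and 1 dpi in cave fish by -0.68 (adjusted p = 0.0370, and 0.259 without cave 7 dpi replicate 2). The remaining comparisons called none of the 15 beyond these and ghra.

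**Figure D5:**
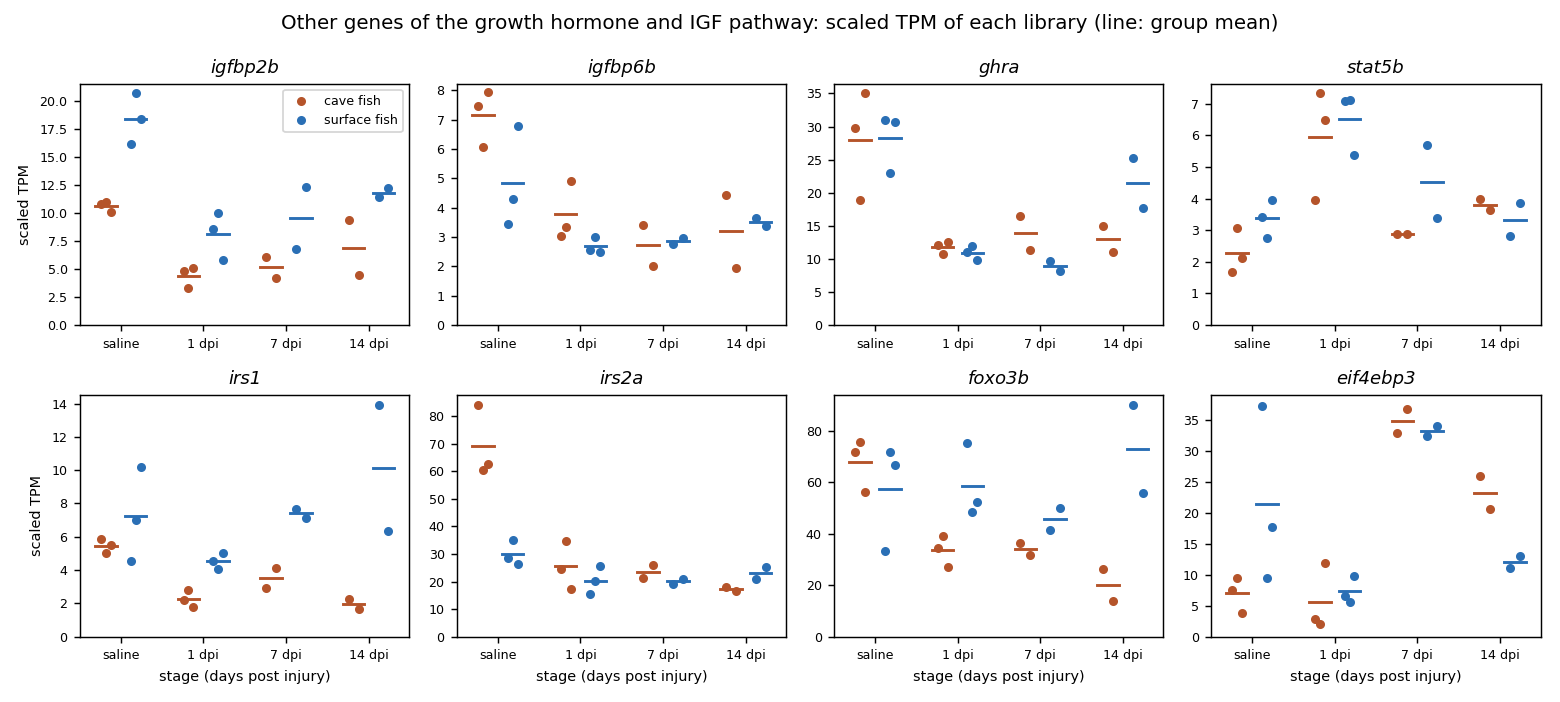
Scaled TPM (vertical axis, from 0) of 8 further genes of the growth hormone and IGF pathway in saline controls and at 1, 7 and 14 dpi. Each point is 1 library, cave fish left and surface fish right, and short lines are group means; irs2a is highest in cave controls, at 60.5 to 84.2, and ghra is at 8.18 to 12.6 in all libraries of 1 dpi and in surface fish at 7 dpi.

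Below the receptor, 46 genes passed the filter. In cave fish 3 rose and 7 fell at 1 dpi, where 15.7% of all genes rose and 9.07% fell. At 7 dpi 1 rose and 1 fell, where 5.36% and 2.02% of all genes did, and at 14 dpi none rose and 4 fell, where 6.22% and 3.87% did. In surface fish 3 rose and 3 fell at 1 dpi, where 8.35% and 6.41% of all genes did, and none was called at 7 or 14 dpi. At those later stages 4 and 1 had an unadjusted limma p under 0.05, without the share of all genes and not read as a result. The insulin receptor substrate genes encode the first adaptors below the receptor. In cave fish irs2a read 84.2, 60.5 and 62.7 scaled TPM in controls, 24.7, 34.9 and 17.4 at 1 dpi, 21.2 and 25.8 at 7 dpi, and 17.9 and 16.5 at 14 dpi. Every injured cave library was below every cave control. The differences were -1.43 (adjusted p = 0.000393), -1.51 (adjusted p = 0.00357) and -1.93 (adjusted p = 0.00177). Without scaling the log2 differences were -0.92 (adjusted p = 0.0762), -1.45 (adjusted p = 0.0639) and -2.05 (adjusted p = 0.0147), so the calls at 1 and 7 dpi ended, while the 7 and 14 dpi differences stayed about as large. The 7 dpi call also ended without cave 7 dpi replicate 1 (adjusted p = 0.0635). Cave controls had more irs2a than surface controls, which read 28.7, 34.9 and 26.2, by 1.17 on the log2 scale (adjusted p = 0.00450).

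The related adaptor gene irs1 fell in cave fish at 1 dpi by 1.00 (adjusted p = 0.0104) and at 14 dpi by 1.12 (adjusted p = 0.0261), and both calls ended without scaling, where the log2 difference was -0.61 at 1 dpi (adjusted p = 0.184) and -1.20, as large as before, at 14 dpi (adjusted p = 0.0787). The later call also ended without cave 14 dpi replicate 2 (adjusted p = 0.152). At 14 dpi it read 2.27 and 1.69 scaled TPM in cave fish against 13.9 and 6.33 in surface fish, a difference of -1.82 (adjusted p = 0.00235). In the same 14 dpi comparison foxo3b, a FoxO factor gene, read 26.1 and 13.9 in cave fish against 89.9 and 55.9 in surface fish, a difference of -1.84 (adjusted p = 0.00569). That call ended without scaling (log2 difference -1.37, adjusted p = 0.0550), without surface 14 dpi replicate 1 (adjusted p = 0.0873) and without cave 14 dpi replicate 2 (adjusted p = 0.0585). Cave fish also had less foxo3b at 14 dpi than their controls, which read 71.5, 75.7 and 56.3, by a log2 difference of -1.77 (adjusted p = 0.00762, and 0.0691 without cave 14 dpi replicate 2). Of the 46 genes 1 was higher and 2 lower in cave fish at 14 dpi, where 6.92% and 5.24% of all genes were. The higher one was grb2a, by 0.74 (adjusted p = 0.0174). At 1 and 7 dpi grb2a differed by 0.61 (adjusted p = 0.0145) and 0.73 (adjusted p = 0.0283), cave over surface. For gsk3aa it was -0.83 (adjusted p = 0.00614) and -0.87 (adjusted p = 0.0261). For grb2b it was 0.56 (adjusted p = 0.0246) in controls and 0.50 (adjusted p = 0.0361) at 1 dpi. Without scaling, of these calls of grb2a, gsk3aa and grb2b only gsk3aa at 1 dpi remained (adjusted p = 0.0163).

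Other calls among the 46 were spread over the pathway. At 1 dpi in cave fish the catalytic subunit gene pik3cb rose by 1.07 (adjusted p = 0.00150) and tsc2, an inhibitor of mTOR, fell by 1.04 (adjusted p = 0.00254), a call that ended without scaling (log2 difference -0.67, adjusted p = 0.123). The adaptor gene grb2a, in the 1 of its 2 identifiers that was called, rose by 0.89 (adjusted p = 0.000445). Its relative grb2b rose by 0.53 (adjusted p = 0.0153), a call that held in 18 of 20 fits that left out 1 library. In surface fish at 1 dpi grb2b, gsk3aa and grb2a rose by 0.59, 0.67 and 0.48, and irs2b, tsc2 and tsc1b fell by 2.27, 0.73 and 0.58. All 6 of these surface calls were lost with replicate number as a block within the control and 1 dpi groups, with adjusted p-values of 0.0652 for tsc2 to 0.182 for irs2b, and the irs2b libraries overlapped. The translation repressor gene eif4ebp3 rose at 7 dpi in cave fish to 32.9 and 36.8 scaled TPM, against 7.53, 9.53 and 3.87 in controls, by 2.24 (adjusted p = 0.0235, and 0.126 or 0.167 without cave 7 dpi replicate 1 or 2). Between 7 and 1 dpi it rose by 2.74 in cave fish (adjusted p = 0.00537) and by 2.07 in surface fish (adjusted p = 0.0421), a call that held in 11 of 20 fits that left out 1 library. In cave fish eif4ebp3l differed by 1.32 between those stages (adjusted p = 0.0476) and pik3cb by -0.83 (adjusted p = 0.0338). Those calls held in 9 and 16 of 20 such fits.

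The list of muscle ubiquitin ligase genes tied to FoxO factors or this pathway, and of the transcription factor gene klf15, held 7 identifiers. Of these 1 fell at 1 dpi in each form and 1 at 14 dpi in cave fish. Of all genes 9.07% fell at 1 dpi in cave fish, 6.41% at 1 dpi in surface fish and 3.87% at 14 dpi in cave fish. The gene fbxo40.1, whose mouse counterpart targets IRS1 for degradation, fell at 1 dpi to 10.5, 6.04 and 5.29 scaled TPM against 24.96, 17.98 and 28.1 in cave controls. In surface fish it fell to 3.89, 6.76 and 4.63 against 30.4, 19.9 and 20.8 in surface controls. The log2 differences were -1.61 (adjusted p = 0.00156) in cave fish and -2.02 (adjusted p = 0.000844) in surface fish, and injured and control libraries did not overlap. The gene trim63a, which encodes the muscle ligase MuRF1, fell to 360.2 and 374 scaled TPM at 14 dpi in cave fish, against 2560.2, 2149 and 1921 in cave controls. The log2 difference was -2.58 (adjusted p = 0.0161), and without cave 14 dpi replicate 1 or 2 the adjusted p was 0.0639 or 0.0629.

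Other cell types moved in the cave libraries of these pathway calls. At 1 dpi nerve and Schwann cell markers summed to 76.9 to 92.1 scaled TPM against 162.9 to 198 in cave controls and 5 of 8 fell, fast muscle markers summed to 99487 to 153045 against 195673 to 307259 and 2 of 13 fell, and 9 of 10 macrophage markers rose. At 14 dpi nerve and Schwann cell markers summed to 42.0 to 70.1 and 5 of 8 fell, and 6 of 10 macrophage markers rose. Of all genes 9.07% fell and 15.7% rose at 1 dpi in cave fish, so the fast muscle count lies near that share. At 14 dpi 3.87% fell and 6.22% rose. The part of these cell types in the pathway results was not tested.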

How the data were processed

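The submitters prepared stranded mRNA libraries (TruSeq) read as single 75-base reads, per the labels' protocols. STAR 2.7.3a and RSEM 1.3.0 are named in the submitters' processing notes; which genome build and annotation were used is not given in the sources used here. The deposited table holds TPM per gene, estimated by the authors with RSEM, without counts, so no count model was used. TPM was divided by median-of-ratios factors over 9467 genes at 1 TPM or more in every library. Genes at 1 TPM or more in at least 2 libraries (16884 of 27420) were fitted on log2(scaled TPM + 1) with limma 3.58.1 in R 4.3.3, with 1 mean per group, a mean-variance trend, 12 residual degrees of freedom, 15 comparisons and Benjamini-Hochberg adjustment across all genes. The script was tested on simulated data.

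The 10 genes, the pathway and marker lists and the comparisons were chosen with earlier results of these data known. Every one of the 10 genes is named; of other lists, up to 3 called genes per direction with the smallest adjusted p, and for likeness the genes with the highest correlation. Marker lists covered fast muscle, myoblasts, fibroblasts, macrophages, neutrophils, endothelium, skin, liver, erythrocytes, adipocytes, and nerve and Schwann cells. At 1 dpi 9 of 10 macrophage and 6 of 6 neutrophil markers rose in cave fish, and 3 of 10 and 3 of 6 in surface fish. At 7 dpi 6 of 7 myoblast markers rose in cave fish and 4 of 7 in surface fish. Of 10 endothelial markers 2, 2 and 3 fell in cave fish at 1, 7 and 14 dpi, and 2 rose in surface fish at 1 dpi. Of 9 skin markers 1 rose in cave fish at 1 and 7 dpi, 2 rose in surface fish at 1 dpi and 1 fell in cave fish at 14 dpi. At 1 dpi 1 of 3 adipocyte markers rose in each form, and of liver (2 genes) and erythrocyte (4 genes) markers none was called after injury. The shares of all genes that rose or fell at these stages are given above.

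Samples of the same replicate number were checked for shared deviation. Between surface controls and surface 1 dpi the 3 same-number correlations were 0.137, 0.108 and 0.235, so a fit with number as a block was run for that pair. For cave fish they were 0.082, -0.199 and -0.265. Other pairs reached similar values: 0.259 and 0.190 between cave controls and cave 7 dpi, and 0.248 and 0.0145 between surface controls and surface 7 dpi. Those libraries entered the fit with the replicate block over all libraries. The smallest p an exact permutation test allows is 0.1 for 3 against 3 libraries, 0.2 for 2 against 3 and 0.333 for 2 against 2. Alternatives were unscaled TPM, quantile normalization, a pseudocount of 0.1, no filter, a mean TPM of at least 5, only the groups compared, no trend, replicate blocks and leaving out each library.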

Additional observations from a re-analysis of the deposited data

How the results depend on the processing

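Of 4275 recomputed values of the 10 genes, 4199 kept their side of the threshold, 10 lost a call and 66 gained one. Nearly all were uncalled in the main fit, so the number kept says little about how firm the calls are. Every lost call was of igfbp5b or igfbp3. No called value changed direction, while 169 uncalled values changed sign. Under the alternatives the number of the 10 genes called changed as follows, and the cause was not tested. With unscaled TPM it was 1 for cave 1 dpi against control and 2 for surface 1 dpi against control (igf2b and igfbp1a, not igfbp5b). For surface 7 against 1 dpi it was 2, and for cave against surface at 1 dpi it was 1. Those comparisons called 4526, 5973, 828 and 1384 of 16884 genes, in that order. At 14 dpi it was 1 for cave against surface, but for igf2b in place of igfbp3. With quantile normalization it was 2 for surface 7 dpi against control, and 1 for surface 7 against 1 dpi and for cave against surface at 1 dpi. There 786, 860 and 1975 of 16884 genes were called. With a mean TPM of at least 5, which only 4 of the 10 genes pass, it was 1 for cave and 2 for surface 7 dpi against control. That filter left 7851 genes, of which 973 and 569 were called. With only the groups compared it was 0 for surface 7 dpi against control and for cave against surface at 14 dpi. Few genes were called at all there, 91 of 14070 and 144 of 13385, against 775 and 2053 of 16884 in the main fit. It was 1 for cave 1 dpi and 2 for cave 7 dpi against control, and 2 for cave against surface at 1 dpi. These called 4275 of 15310, 1852 of 14196 and 2068 of 15861 genes. With the replicate block over all libraries it was 2 for surface 7 dpi against control and for cave against surface at 14 dpi. It was 1 for surface 7 against 1 dpi and for cave against surface in controls and at 1 dpi. In that order 571, 1943, 585, 1432 and 1861 of 16884 genes were called. The block within control and 1 dpi changed no call of the 10 genes. Without the 2 cave libraries highest in skin markers, added after seeing the data, it was 1 for cave against surface at 1 dpi, where 1252 of 16639 genes were called. Leaving out each library in turn gave 1 to 3 for surface 7 dpi, 0 to 1 for cave 1 dpi and 0 to 2 for cave 7 dpi against control. It gave 0 to 2 for surface 7 against 1 dpi. For cave against surface it gave 0 to 1 in controls, 0 to 2 at 1 dpi, 0 to 1 at 7 dpi and 0 to 3 at 14 dpi. The share of all genes called in each of those fits is not given, so these ranges are not read as a result. Of 1689 recomputed values of called pathway genes, 252 lost the call and none reversed. With 2 libraries at 7 and 14 dpi, depth unknown and igf1 near 0, small changes could not be resolved.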
